A study of Mus musculus with 15 samples.

Results

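Genes for the synthesis, breakdown and binding of retinoic acid were followed in optic tissue grown from mouse ES cells. The 9 genes are the retinaldehyde dehydrogenases Aldh1a1, Aldh1a2 and Aldh1a3, the retinoic acid hydroxylases Cyp26a1, Cyp26b1 and Cyp26c1, the receptor gene Rarb, and the genes of the carriers Crabp1 and Crabp2. They were taken by symbol from a table of 23244 gene entries, and all 9 were found and passed the filter on low values, as did 13845 entries in all. Cyp26c1 passed it only through Day 12 +Fgf and Aldh1a2 only through Day 15 +Wnt, the groups in which they were high, so for these 2 genes the adjusted p-values below are those of a fit with no filter, over 18640 entries.

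SFEBq is a floating culture in which dissociated ES cells clump together and grow an optic epithelium on the outside. All groups came from a single ES line, EB5 Rx::GFP+/-, in which GFP reports the eye field gene rx, so they share a genetic background, the ES cell medium with CHIR99201, a MEK inhibitor, LIF and blasticidin, and the Matrigel added to the aggregates. The series holds 5 groups of 3 biological replicates: Day 10 Rx::GFP+ epithelium, and explants of it that were kept in retinal maturation medium until Day 12 or Day 15 under +Fgf or +Wnt stimulation. +Fgf stands for 5 ng/mL human recombinant bFgf with 10% FBS, and since serum was listed for this medium only, Fgf and serum cannot be told apart. +Wnt stands for the GSK3 inhibitor CHIR99201 at 3 uM for 24 hours and at 1 uM afterwards. The series holds no explants kept in this medium without either stimulation. In a change from Day 10, the stimulation thus cannot be told apart from age, excision and the new medium. Values are normalized read counts scaled to a common library size (CPM), and in such bulk tissue fewer cells of a type and less RNA per cell cannot be told apart.

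Retinoic acid is made from vitamin A. Retinol is oxidized to retinaldehyde, Aldh1a enzymes oxidize retinaldehyde to retinoic acid, and Cyp26 enzymes hydroxylate retinoic acid to products that are cleared, so that the place of these enzymes in a tissue sets where the signal acts. In the cell, Crabp proteins bind retinoic acid, and RAR and RXR receptors bind DNA as pairs and switch target genes, among them Rarb and Cyp26a1. In the embryonic mouse eye, Aldh1a1 is known for the dorsal and Aldh1a3 for the ventral retina, Aldh1a2 for the mesenchyme around the eye, and Cyp26a1 and Cyp26c1 for a stripe between the dorsal and the ventral domain.

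The labelled tissues were checked against markers. The summed level of 5 neural retina genes (Rax, Six6, Six3, Lhx2, Pax6) was 1580 to 1794 CPM in the Day 10 and +Fgf libraries and 489.7 to 768 CPM in the +Wnt libraries. The summed level of 6 pigment epithelium genes (Mitf, Tyr, Tyrp1, Dct, Pmel, Otx2) was 327 to 395 CPM in Day 15 +Fgf and 5195 to 6718 CPM in Day 15 +Wnt. It was also 990.1 to 1324 CPM at Day 10, before either stimulation. Libraries held between 12556998 and 16175450 reads on genes, and the value of 1 read was 0.0620 to 0.0764 CPM.

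Of the promoters of these genes, 2 (Cyp26a1 and Rarb) carry the kind of element through which retinoic acid receptors are known to act. Both genes were higher in +Fgf than in +Wnt tissue at both ages. So were Aldh1a1, Cyp26c1 and Crabp1, whose promoter records hold no such element, and Aldh1a3, which has no record. The part of the element in these differences was not tested. The element was searched for as a direct repeat of the hexamer AGGTCA or its variant forms AGTTCA and also GGGTCA and also GGTTCA with 5 bases between them, on both strands, in the RefSeq promoter records (GRCm38.p6, from 250 bases before to 50 after the start). Of the 9 genes, 7 have such records, and Aldh1a3 and Crabp2 have none in the table used. Capitals mark the hexamers below.
Cyp26a1: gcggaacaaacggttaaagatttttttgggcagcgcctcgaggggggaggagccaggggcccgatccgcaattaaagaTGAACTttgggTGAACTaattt
Rarb: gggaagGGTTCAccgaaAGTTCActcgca
The Cyp26a1 stretch is chr19:37697698-37697797 on the plus strand, where no exon is annotated by GENCODE, and its repeat lies from -32 to -16 bases from the start, on the strand opposite to the gene. The Rarb stretch is chr14:16575507-16575535 on the minus strand, and its repeat lies at -53 to -37 on the strand of the gene, within the first exon of longer annotated Rarb transcripts. Such a repeat was in 32 of 32851 promoter records (0.0974%), and in none of the records of Aldh1a1, Aldh1a2, Cyp26b1, Cyp26c1 and Crabp1. Repeats with 1 or 2 bases between the hexamers were in 0.2222% and 0.2679% of records and in none of these genes.

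**Figure D1:**
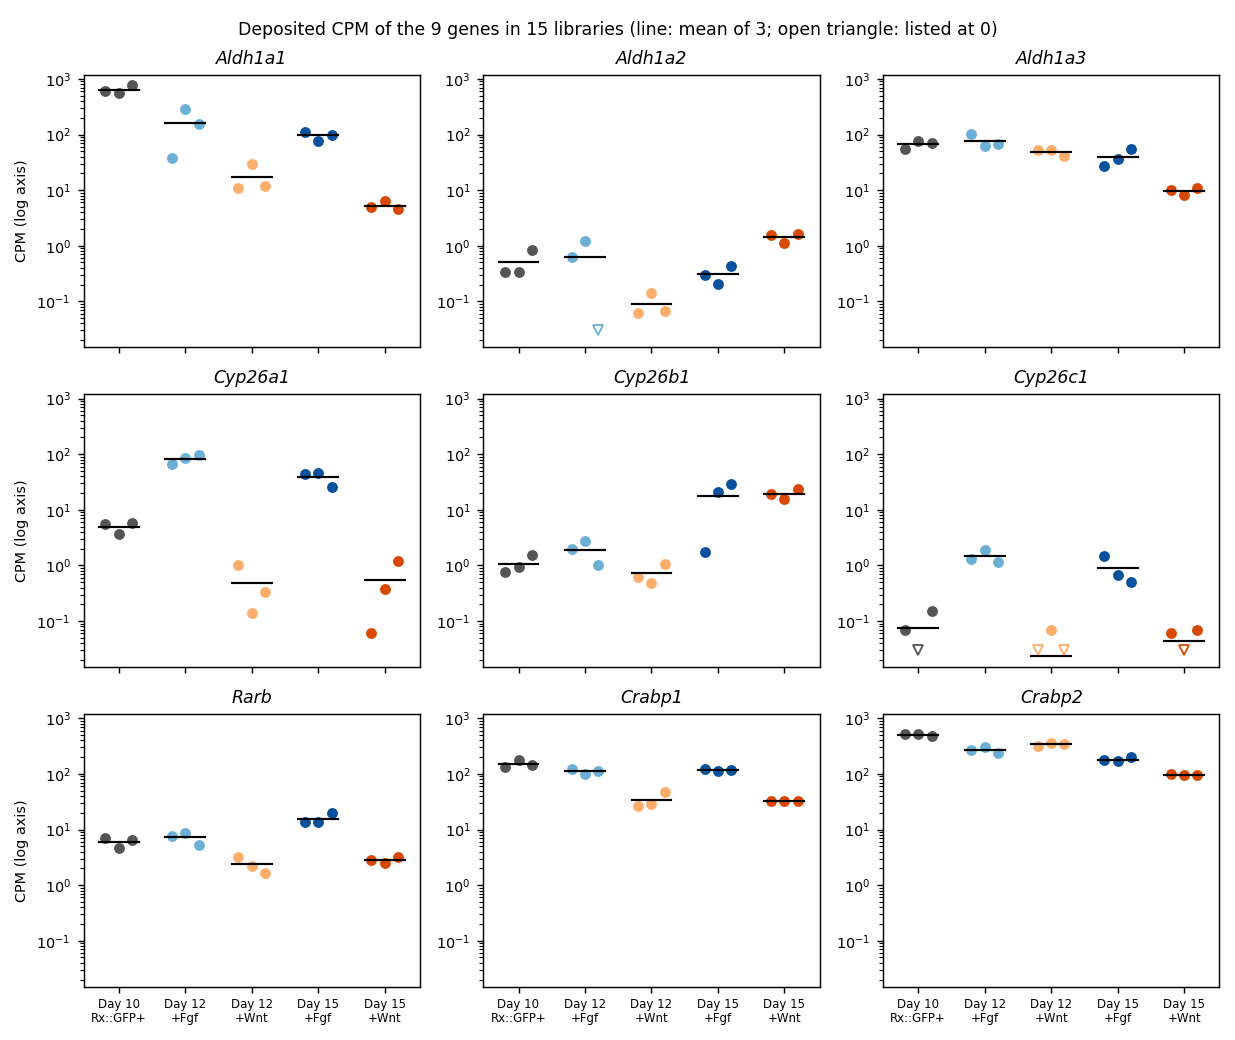
CPM of the 9 genes (log axis) in the 15 libraries, by group. Points are libraries, lines are means of 3, and open triangles are libraries listed at 0; Cyp26a1 stands between 26.1 and 95.6 CPM in all +Fgf libraries and at most at 1.19 CPM in all +Wnt libraries.

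The +Fgf and +Wnt explants started from the same epithelium, so their comparison at each age asks how the stimulations differ. At Day 12, 7 of the 9 genes passed the test between the tissues (limma, Benjamini-Hochberg adjusted over all genes tested), when 51.5% of all genes tested did. Aldh1a1, Aldh1a3, Cyp26a1, Cyp26c1, Rarb and Crabp1 were higher in +Fgf (26.3% of all genes were), and Crabp2 was lower (25.2%). At Day 15, 8 of the 9 passed, with a background of 68.7%. Here 7 were higher in +Fgf (38% of all genes were), since Crabp2 had turned, and Aldh1a2 was lower (30.6% of all genes were). Without Cyp26c1 and Aldh1a2, whose direction the filter favoured, 6 of 7 passed at each age, with 5 higher in +Fgf at Day 12 and 6 at Day 15. The median log2 difference of these 7 genes was 1.50 at Day 12 and 1.95 at Day 15, and that of all genes tested was -0.00 and 0.05. The +Fgf and +Wnt libraries did not overlap for 7 of the 9 genes at Day 12 (60.4% of all genes) and for 8 at Day 15 (73.1%).

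**Figure D2:**
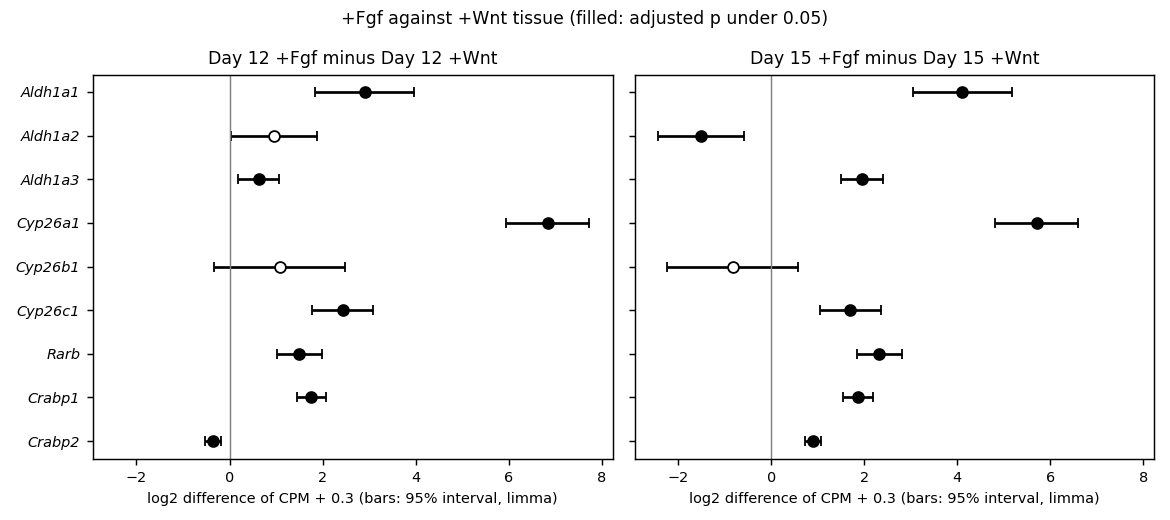
Log2 difference of CPM + 0.3 between +Fgf and +Wnt tissue (x axis) for each of the 9 genes (y axis), at Day 12 on the left and at Day 15 on the right. Bars are 95% intervals from limma and filled points passed the test; Cyp26a1 has the greatest difference at both ages, 6.84 and 5.71.

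Among the synthesis genes, Aldh1a1 was the one that changed most from the starting tissue. It is on chromosome 19 (20492715 to 20643465, plus strand). At Day 10 it stood at 596, 552 and 763 CPM. In Day 12 +Fgf it stood at 37.1, 291 and 155 CPM, and in Day 12 +Wnt at 10.8, 29.6 and 11.8 CPM. All libraries of both stimulations lay below Day 10, and the +Wnt libraries below the +Fgf libraries. The Day 15 +Fgf libraries were at 112, 76.6 and 99.8 CPM, within the range of Day 12 +Fgf. Day 15 +Wnt, at 4.96, 6.34 and 4.49 CPM, held the lowest levels of the series.

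Aldh1a1 thus fell in both directions of differentiation, and further in +Wnt. The log2 difference from Day 10 was -2.40 in Day 12 +Fgf (95% interval -3.48 to -1.33, limma adjusted p = 0.000751), a 3.96-fold lower mean. In Day 12 +Wnt the mean was 36.6-fold lower (adjusted p = 1.97e-07, limma). Between the tissues the log2 difference was 2.91 at Day 12 (limma adjusted p = 0.000141) and 4.11 at Day 15 (1.78e-06). From Day 12 to Day 15 Aldh1a1 fell again in +Wnt, by 1.53 on the log2 scale (limma adjusted p = 0.0132), but without Day 12 +Wnt replicate 2 the difference was -1.07 and did not pass. In +Fgf the change was -0.32 (-1.39 to 0.75, adjusted p = 0.612).

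The Day 12 +Fgf replicates were far apart in Aldh1a1, and replicate 1 was the low one. Without it, the log2 difference from Day 10 was -1.57 and that from Day 12 +Wnt was 3.74, both past the test, and the change to Day 15 in +Fgf became -1.16 and passed (limma adjusted p = 0.01001). Without replicate 2, the highest, these differences were -3.05, 2.26 and 0.32. With the RNA integrity number as a covariate, the fall from Day 10 to Day 12 +Fgf was 1.39 on the log2 scale and did not pass. In the paper's list this number was higher in every Day 12 +Fgf library than in any Day 10 or Day 15 +Fgf library. RNA integrity and group thus cannot be told apart in these comparisons.

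The same 3 libraries differed in genes that pattern the eye from dorsal to ventral. Tbx5, a dorsal factor named here after its values were seen, stood at 3.87, 18.4 and 15.6 CPM in replicates 1, 2 and 3, and the ventral factor Vax2 at 64.6, 27.1 and 53.7 CPM. Aldh1a3 was highest in replicate 1. Pax2, also a ventral factor, was at 51.8, 21.0 and 53.2 CPM in replicates 1, 2 and 3. In these 3 libraries Aldh1a1 and Tbx5 had the same order, Vax2 had the reverse and Pax2 had neither. The part of these values in the spread of Aldh1a1 was not tested.

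Aldh1a7, the neighbour of Aldh1a1 at 49.487 kb, encodes a closely related dehydrogenase with 91.6% identical coding bases. It was also the gene whose pattern over the 5 group means was most like that of Aldh1a1 among 11041 candidates (mean absolute log2 difference 0.42), followed by Wfdc1 (0.59). Aldh1a7 was at 146 to 157 CPM at Day 10 and at 2.104 to 2.92 CPM in Day 15 +Wnt. Its level was 17.3% to 59.9% of that of Aldh1a1 over the libraries, so it did not make up a fixed share. No stretch as long as a read is shared by the 2 transcripts without a mismatch (0 of 1953 windows). Only exact matches were counted, so whether reads of Aldh1a1 were placed on Aldh1a7 with mismatches was not tested.

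Aldh1a3, on chromosome 7 (66390890 to 66427517, minus strand), kept its level longer. It stood at 55.7, 76.6 and 70.5 CPM at Day 10, at 100.4, 63.0 and 67.5 CPM in Day 12 +Fgf, and at 51.8, 53.4 and 41.6 CPM in Day 12 +Wnt. The Day 10 and Day 12 +Fgf libraries overlapped, and the Day 12 +Wnt libraries lay just below both. Day 15 +Fgf stood at 27.1, 36.3 and 54.6 CPM and Day 15 +Wnt at 9.93, 8.13 and 10.7 CPM, far below all other libraries.

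The fall of Aldh1a3 in +Wnt passed the test after Day 12. Day 12 +Wnt differed from Day 10 by -0.46 (95% interval -0.91 to -0.02, limma adjusted p = 0.0689), which passed in 3 of 18 alternatives: with the RNA integrity number as a covariate (-0.85), in the fit of these samples alone (-0.46) and without Day 10 replicate 1 (-0.59). The change from Day 12 to Day 15 was -2.32 in +Wnt (limma adjusted p = 5.59e-08), a 5.10-fold lower mean, and -0.99 in +Fgf (0.000726), where it was -0.18 and did not pass with the RNA integrity number as a covariate. These changes differed from each other by 1.32 on the log2 scale (interaction in limma, adjusted p = 0.00156). The tissues differed by 1.95 at Day 15 (adjusted p = 3.73e-07, limma). At Day 12 they differed by 0.63 (limma adjusted p = 0.0197), a call that was lost without Day 12 +Fgf replicate 1 (0.42) and without Day 12 +Wnt replicate 3 (0.52). The genes most like it in pattern were Col2a1 (0.16) and Mapk12 (0.16).

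Aldh1a2, on chromosome 9 (71215789 to 71296243, plus strand), was read 0 to 25 times per library. It stood at 0.341, 0.334 and 0.841 CPM at Day 10 and at 0.634, 1.21 and 0 CPM in Day 12 +Fgf. In Day 12 +Wnt it was at 0.0629, 0.139 and 0.0662 CPM, which is 1 or 2 reads, and in Day 15 +Fgf at 0.295, 0.206 and 0.424 CPM. Day 15 +Wnt was the one group with at least 1 CPM in every library, at 1.55, 1.12 and 1.61 CPM. Only Day 12 +Fgf overlapped it, through replicate 2.

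Aldh1a2 was lowest in Day 12 +Wnt and highest in Day 15 +Wnt. Day 12 +Wnt stood below Day 10 by 1.00 on the log2 scale (95% interval of the difference -1.92 to -0.08, limma adjusted p = 0.0677), which passed in 5 of 17 alternatives, among them edgeR (-2.38) and DESeq2 (-2.51). Day 12 +Fgf stood above Day 12 +Wnt by 0.95 (limma adjusted p = 0.0896), which passed in 4 of 17, again with edgeR (2.67) and DESeq2 (2.80). From Day 12 to Day 15 +Wnt the log2 difference was 2.14 (limma adjusted p = 0.000464), from 4 to 63 summed reads, a ratio of 16.3 with a 95% interval of 6.07 to 61.7 for counting error only. Day 15 +Fgf was lower than Day 15 +Wnt by 1.51 on the log2 scale (limma adjusted p = 0.00654), and this call was lost with quantile normalization (-0.87) and with the RNA integrity number as a covariate (-0.57). The change from Day 12 to Day 15 differed between the stimulations by -2.46 (limma interaction, adjusted p = 0.00434), or by -3.12 without Day 12 +Fgf replicate 3, the library at 0. With the RNA integrity number as a covariate this difference was -1.39 and did not pass. Against Day 10, Day 15 +Wnt was higher by 1.15 (limma adjusted p = 0.0263), but the call was lost in 8 of 17 alternatives, among them the fits without Day 10 replicate 1 (1.01) or 2 (1.00) and without Day 15 +Wnt replicate 1 (1.09) or 3 (1.07). Genes of neural crest and periocular mesenchyme were also highest in Day 15 +Wnt, but were not lowest in Day 12 +Wnt. The summed level of the 9 listed genes was 330 to 378 CPM in Day 15 +Wnt, 93.7 to 121 CPM in Day 12 +Wnt and 53.2 to 77.9 CPM in Day 15 +Fgf, with none at 0 in a whole group and 3 under 1 CPM in each of these groups. At Day 10 the sum was 64.2 to 88.4 CPM, below Day 12 +Wnt, and in Day 12 +Fgf it was 104 to 179 CPM. The part of these genes in the level of Aldh1a2 was not tested. Neat1 (0.14) and Plxna2 (0.15) were most like it in pattern.

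Levels per kilobase of exon show which Aldh1a gene carried the transcripts. The summed level of the 3 genes was 144 ± 22.9 CPM per kb (SD, n = 3) at Day 10, 49.5 ± 22.0 in Day 12 +Fgf, 14.2 ± 3.16 in Day 12 +Wnt, 28.1 ± 4.41 in Day 15 +Fgf and 3.78 ± 0.212 in Day 15 +Wnt. At Day 10, Aldh1a1 held 87.0% to 90.8% of it. In Day 12 +Wnt, Aldh1a3 held the most, 65.6% to 83.5%. In Day 15 +Wnt the 3 genes were closest to each other, with 23.0% to 36.3% for Aldh1a1, 14.0% to 18.1% for Aldh1a2 and 49.8% to 58.9% for Aldh1a3. In Day 12 +Fgf, Aldh1a1 held 25.5%, 80.6% and 68.2% in replicates 1, 2 and 3, so the group had no single make-up. These shares depend on the length chosen for a gene, and with the RefSeq transcript that the table lists, a length chosen after seeing the data, Aldh1a1 held 36.3% to 52.0% in Day 15 +Wnt.

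**Figure D3:**
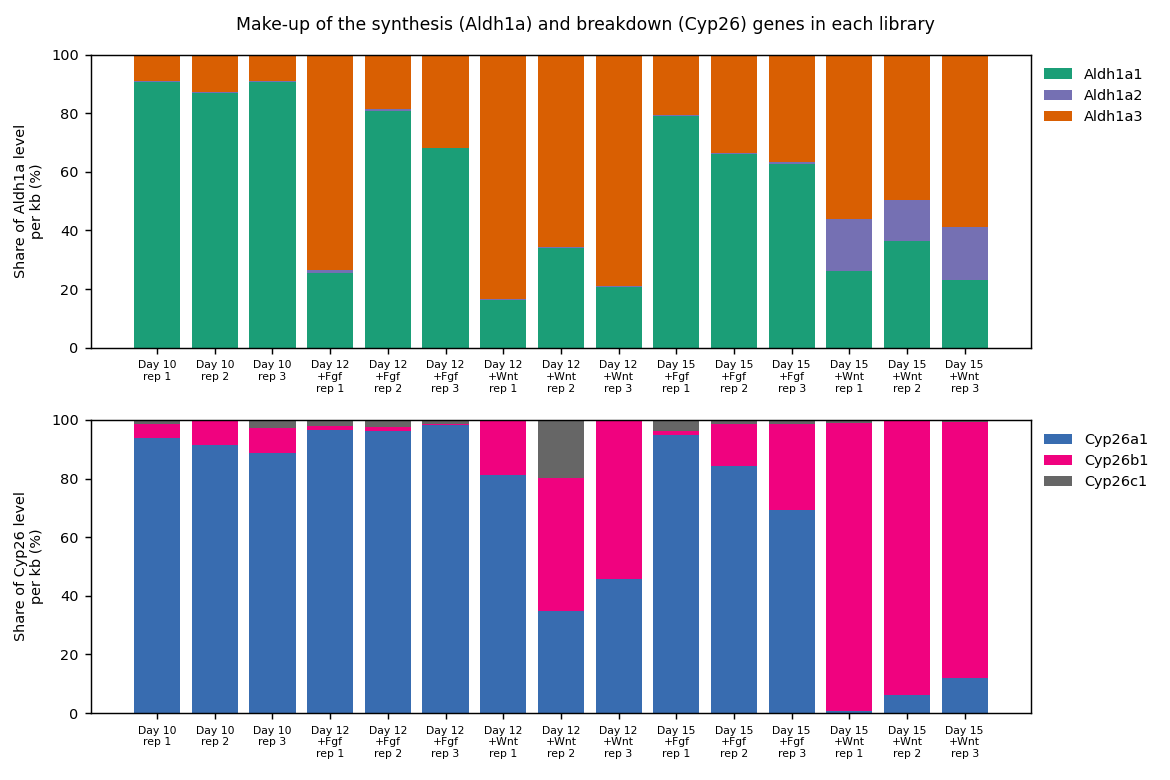
Share (%) of each gene in the summed level per kilobase of its family, for Aldh1a genes (top) and Cyp26 genes (bottom), with 1 bar for each of the 15 libraries. Aldh1a1 fills 87.0% to 90.8% of the Day 10 bars, and Cyp26b1 fills 87.3% to 98.2% of the Day 15 +Wnt bars of the lower panel.

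Among the breakdown genes, Cyp26a1 separated the tissues most. It is on chromosome 19 (37697798 to 37701536, plus strand). It stood at 5.45, 3.74 and 5.73 CPM at Day 10 and at 65.7, 85.4 and 95.6 CPM in Day 12 +Fgf. In Day 12 +Wnt it was at 1.01, 0.139 and 0.331 CPM. Day 12 +Fgf and Day 12 +Wnt thus lay on opposite sides of Day 10, with no overlap. At Day 15 it was at 43.4, 45.2 and 26.1 CPM in +Fgf and at 0.0620, 0.373 and 1.19 CPM in +Wnt, again without overlap.

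Relative to Day 10, the mean of Cyp26a1 was 16.5-fold higher in Day 12 +Fgf (log2 difference 3.97, 95% interval 3.08 to 4.87, limma adjusted p = 8.86e-07). It was 10.1-fold lower in Day 12 +Wnt (log2 difference -2.87, limma adjusted p = 2.23e-05). The difference between the tissues was 6.84 at Day 12 and 5.71 at Day 15 (adjusted p = 9.16e-10 and 3.52e-09, limma). Between Day 12 and Day 15 the level in +Fgf fell by 1.12 on the log2 scale (limma adjusted p = 0.0317). This last call was lost in 8 of 18 alternatives, among them the fits without Day 12 +Fgf replicate 2 or 3 (-1.09 and -1.01) and without Day 15 +Fgf replicate 3 (-0.87), and the difference was -0.22 with the RNA integrity number as a covariate. The level in +Wnt, at 1 to 17 reads per library, changed by 0.00 (-0.89 to 0.90). Grb10 (0.63) and Tagln (0.67) were the genes most like Cyp26a1 in pattern.

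Cyp26c1, at 37685581 to 37693398 on the plus strand of chromosome 19, is the neighbour of Cyp26a1, with 4.399 kb between them. Like Cyp26a1, it stood higher in the +Fgf groups than in the others, at a far lower level. It stood at 1.33, 1.91 and 1.15 CPM in Day 12 +Fgf and at 1.47, 0.687 and 0.495 CPM in Day 15 +Fgf. Day 10 libraries held 0 to 2 reads of it and +Wnt libraries 0 or 1 read. Every +Fgf library was above every other library. Day 12 +Fgf held 69 summed reads, Day 10 held 3 and Day 12 +Wnt held 1. Scaled to depth, the ratio to Day 10 was 20.9 (95% interval 6.84 to 104) and that to Day 12 +Wnt was 66.4 (11.5 to 2661), for counting error only. In limma Cyp26c1 was higher in Day 12 +Fgf than at Day 10 by 2.24 on the log2 scale (adjusted p = 5.87e-06 with no filter) and higher in +Fgf than in +Wnt by 2.43 at Day 12 and by 1.70 at Day 15 (adjusted p = 2.01e-06 and 3.78e-05 with no filter), values that depend on the pseudocount. The Day 15 call was lost with the RNA integrity number as a covariate (1.29). Fn1 (0.25) and Akap12 (0.26) were most like it in pattern.

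Cyp26b1, on chromosome 6 (84571414 to 84593908, minus strand), followed age more than stimulation. It stood at 0.750, 0.936 and 1.53 CPM at Day 10, at 1.96, 2.80 and 1.02 CPM in Day 12 +Fgf, and at 0.629, 0.487 and 1.06 CPM in Day 12 +Wnt. These 3 groups overlapped. In Day 15 +Wnt it stood at 19.4, 15.4 and 23.5 CPM, above all libraries of the earlier days. In Day 15 +Fgf it stood at 1.77, 20.8 and 29.6 CPM, so that replicate 1 was at the level of Day 12 +Fgf and the other two were at or above that of Day 15 +Wnt.

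Cyp26b1 rose from Day 12 to Day 15 in +Wnt, by 4.28 on the log2 scale (limma adjusted p = 2.33e-05), a 26.8-fold higher mean. In +Fgf the log2 difference was 2.38 (limma adjusted p = 0.00574), and it was 3.58 without Day 15 +Fgf replicate 1 and 1.65 without replicate 3. The tissues at Day 15 differed by -0.83 (95% interval -2.23 to 0.57, limma adjusted p = 0.278). Without Day 15 +Fgf replicate 1 this difference was 0.37, and without replicate 3 it was -1.55 and passed (limma adjusted p = 0.0424). The summed level of 6 genes listed for telencephalon and choroid plexus was uneven in the same libraries. It was 85.2, 223 and 192 CPM in replicates 1, 2 and 3 of Day 15 +Fgf, of which Ttr made up 3.61, 121 and 66.6 CPM. In Day 15 +Wnt the sum was 1455, 1044 and 1003 CPM in replicates 1, 2 and 3, and most of it was Ttr, at 1231, 807 and 749 CPM. The pigment epithelium genes were also highest in Day 15 +Wnt, so this sum alone cannot name a cell type. None of the 6 genes was at 0 in either whole group. Their part in the level of Cyp26b1 was not tested. Ndrg2 (0.28) and Sptb (0.31) were most like Cyp26b1 in pattern.

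The summed Cyp26 level per kilobase was 2.75 ± 0.619 CPM per kb (SD, n = 3) at Day 10, 42.7 ± 7.61 in Day 12 +Fgf and 0.397 ± 0.214 in Day 12 +Wnt. At Day 15 it was 23.0 ± 4.05 in +Fgf and 3.92 ± 1.01 in +Wnt. The libraries of Day 12 +Fgf and Day 12 +Wnt thus lay on either side of Day 10 without overlap. Cyp26a1 held 96.4% to 98.3% of the sum in Day 12 +Fgf, and Cyp26b1 held 87.3% to 98.2% in Day 15 +Wnt. In +Wnt the summed level was thus low at Day 12 and higher at Day 15, where it was mostly Cyp26b1. At Day 10 it was mostly Cyp26a1, which held 88.6% to 93.9%.

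Rarb encodes the retinoic acid receptor beta and is itself known to be switched on by retinoic acid. It is on chromosome 14 (16430839 to 16819156, minus strand). It stood at 7.15, 4.61 and 6.49 CPM at Day 10, at 7.67, 8.66 and 5.24 CPM in Day 12 +Fgf and at 3.21, 2.23 and 1.65 CPM in Day 12 +Wnt. The +Fgf libraries overlapped those of Day 10, and the +Wnt libraries were below both. At Day 15 it was at 13.8, 13.6 and 19.4 CPM in +Fgf, above all other libraries, and at 2.85, 2.46 and 3.23 CPM in +Wnt.

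Rarb fell under +Wnt by Day 12 (log2 difference from Day 10 -1.28, limma adjusted p = 0.000166), and from then to Day 15 differed by 0.28 (-0.21 to 0.76). Under +Fgf it differed from Day 10 by 0.22 at Day 12 (-0.27 to 0.71) and rose by 1.10 from Day 12 to Day 15 (limma adjusted p = 0.000694). The tissues differed by 1.50 at Day 12 and by 2.33 at Day 15 (limma adjusted p = 4.05e-05 and 1.43e-07). The difference between these changes with age was 0.82 (limma interaction, adjusted p = 0.0483), and it did not pass in 16 of 24 alternatives, among them edgeR (0.82) and DESeq2 (0.83). It was 0.60 to 0.88 and did not pass without Day 12 +Fgf replicate 1 or 3, Day 12 +Wnt replicate 1 or 2, Day 15 +Fgf replicate 3, or Day 15 +Wnt replicate 1 or 2. Over the step from Day 12 to Day 15 in +Fgf, 4 of 4 retinal ganglion cell markers were also higher (27.2% of all genes were). Their summed level was 39.4 to 65.4 CPM before and 296 to 357 CPM after, none of them at 0. In +Wnt the sum was 7.42 to 11.1 CPM at Day 12 and 8.35 to 10.5 CPM at Day 15. At Day 10 it was 6.75 to 9.02 CPM. From Day 10 to Day 12 +Fgf, where Rarb overlapped, 3 of 4 markers were already higher (27.9% of all genes were). The part of these markers in the level of Rarb was not tested. Exons of Rarb overlap exons of Top2b and Gm48162 on the opposite strand. The library kit keeps strand, but the strand setting of the counting is not given in the sources used here. Bmpr1b (0.18) and E130218I03Rik (0.19) were most like Rarb in pattern.

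The carrier gene Crabp1, on chromosome 9 (54764748 to 54773110, plus strand), marked the +Wnt tissue by its low level. It stood at 133, 175 and 148 CPM at Day 10, at 124, 101.2 and 112 CPM in Day 12 +Fgf and at 124.0, 114 and 119 CPM in Day 15 +Fgf. In Day 12 +Wnt it was at 26.4, 29.0 and 46.7 CPM and in Day 15 +Wnt at 32.3, 32.6 and 32.7 CPM. Every +Wnt library was below every other library. Crabp1 fell from Day 10 to Day 12 +Wnt by 2.19 on the log2 scale (limma adjusted p = 4.72e-09) and differed by -0.02 afterwards (-0.33 to 0.30), or by 0.23 without Day 12 +Wnt replicate 3, which passed (limma adjusted p = 0.0454). The tissues differed by 1.76 at Day 12 and by 1.87 at Day 15 (limma adjusted p = 4.47e-08 and 9.58e-09). From Day 10 to Day 12 +Fgf it fell by 0.43 (limma adjusted p = 0.0225), a call lost without Day 10 replicate 2 (-0.32), without Day 12 +Fgf replicate 2 (-0.35) and in moderation without a trend. Rab27b (0.13) and Met (0.20) were most like it in pattern.

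Crabp2, the other carrier gene, on chromosome 3 (87948666 to 87953376, plus strand), fell in every step. It stood at 513, 532 and 471 CPM at Day 10, at 267, 302 and 233 CPM in Day 12 +Fgf and at 314, 360.1 and 343 CPM in Day 12 +Wnt. At Day 15 it was at 175, 168 and 199 CPM in +Fgf and at 98.8, 94.6 and 96.0 CPM in +Wnt. No 2 groups overlapped. The differences from Day 10 were -0.92 in Day 12 +Fgf and -0.57 in Day 12 +Wnt (limma adjusted p = 1.09e-07 and 1.44e-05).

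Crabp2 was the only one of the 9 genes that passed the test between the tissues at both ages with opposite signs. +Fgf was lower by 0.35 on the log2 scale at Day 12 (limma adjusted p = 0.00177) and higher by 0.90 at Day 15 (4.13e-08). With age Crabp2 fell by 0.56 in +Fgf and by 1.81 in +Wnt (limma adjusted p = 1.93e-05 and 1.71e-11), and the difference between the changes was 1.25 (limma interaction, adjusted p = 2.22e-07). With the RNA integrity number as a covariate the fall in +Fgf was 0.44 and did not pass. Igf2bp3 (0.15) and Ajuba (0.17) were most like it in pattern. Per kilobase, Crabp2 stood above Crabp1 in each group mean except Day 15 +Fgf, where Crabp1 was at 149 and Crabp2 at 137 CPM per kb, and with the listed RefSeq transcript as the length Crabp2 held 54.8% to 59.0% there.

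Counted over the 9 genes, calls against Day 10 at Day 12 and between the ages were no more frequent than among all genes. From Day 10 to Day 12 +Fgf, 5 passed (background 55.7%), with Cyp26a1 and Cyp26c1 higher (27.9% of all genes were) and Aldh1a1, Crabp1 and Crabp2 lower (27.8%). From Day 10 to Day 12 +Wnt, 5 passed (background 60.2%), and all 5 were lower (29.6% of all genes were). These were Aldh1a1, Cyp26a1, Rarb, Crabp1 and Crabp2. From Day 12 to Day 15, 5 passed in +Fgf (background 57.1%), with Cyp26b1 and Rarb higher (27.2%) and Aldh1a3, Cyp26a1 and Crabp2 lower (29.9%). In +Wnt, 5 passed (background 68%), with Aldh1a2 and Cyp26b1 higher (32.5%) and Aldh1a1, Aldh1a3 and Crabp2 lower (35.5%). The interaction passed for 4 genes (background 47.9%), positive for Aldh1a3, Crabp2 and Rarb (27%) and negative for Aldh1a2 (20.9%). Calls of Cyp26c1 and Aldh1a2 in these counts were favoured by the filter, and of the other 7 genes 4, 5, 5 and 4 passed in these comparisons, in the order given, and 3 in the interaction.

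Over the whole course from Day 10 to Day 15, 7 genes passed in +Fgf (background 72.6%) and 8 in +Wnt (background 79.8%), and both comparisons share the Day 10 libraries. Under +Fgf, Cyp26a1, Cyp26b1, Cyp26c1 and Rarb were higher than at Day 10 (4 of 9 against 36.2% of all genes) and Aldh1a1, Aldh1a3 and Crabp2 lower (3 of 9 against 36.4%). The 3 breakdown genes thus ended above the start, by 2.85 for Cyp26a1, 3.04 for Cyp26b1 and 1.60 for Cyp26c1 on the log2 scale, and Cyp26b1 was at 4.24 without Day 15 +Fgf replicate 1 and at 2.31 without replicate 3. Under +Wnt, Aldh1a2 and Cyp26b1 were higher (2 of 9 against 39.6%) and Aldh1a1, Aldh1a3, Cyp26a1, Rarb, Crabp1 and Crabp2 lower (6 of 9 against 40.2%). Without Cyp26c1 and Aldh1a2, 6 of 7 genes passed in +Fgf and 7 of 7 in +Wnt.

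**Figure D4:**
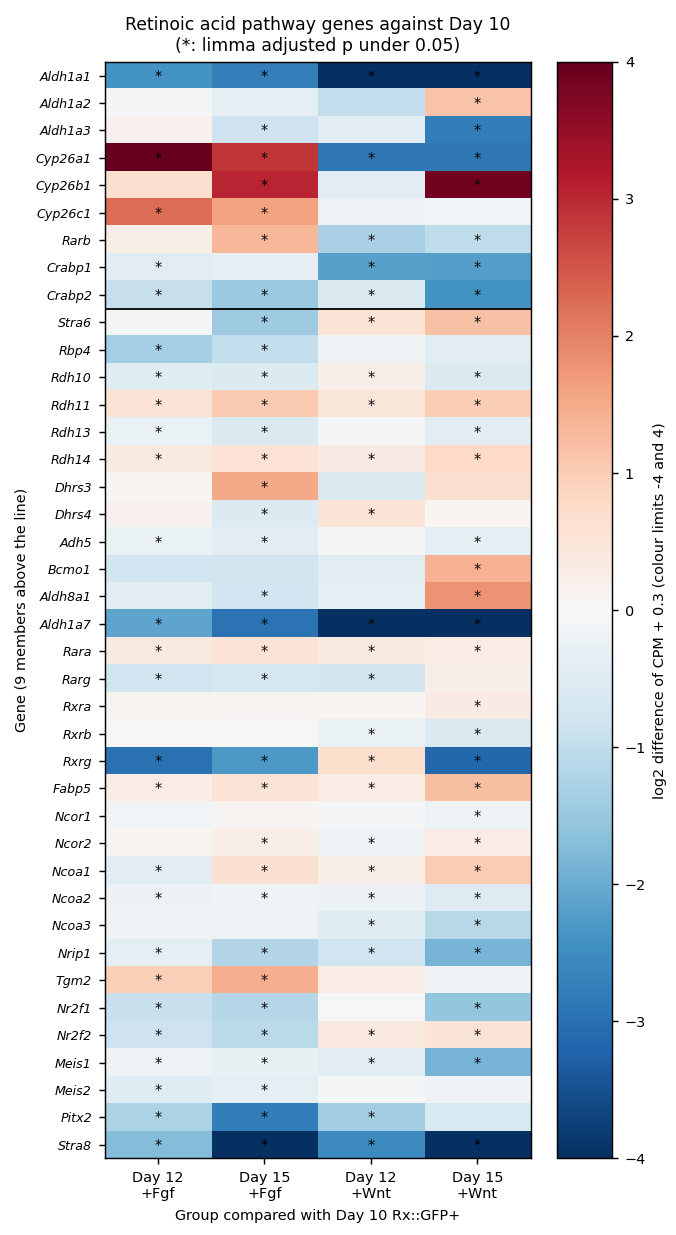
Log2 difference of CPM + 0.3 from Day 10 Rx::GFP+ (colour) for the 9 genes and for 31 other tested genes of the pathway (rows) in the 4 stimulated groups (columns). Asterisks mark limma adjusted p under 0.05, and colours stop at -4 and 4; Cyp26a1 and Cyp26c1 are red in both +Fgf columns, and Aldh1a1 is blue in all 4.

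Other genes of the pathway were taken from a list of 46, of which 31 were tested. Between the tissues, 17 passed at Day 12 (7 higher in +Fgf, 10 lower) and 23 at Day 15 (12 higher, 11 lower), where 51.5% and 68.7% of all genes passed, with median log2 differences of -0.03 and -0.06. These counts are near the shares of all genes. By role, and to be read against the same shares, the retinol uptake and binding genes passed in 2 of 2 and 1 of 2 cases at Day 12 and Day 15, the enzymes that interconvert retinol and retinaldehyde in 4 and 5 of 10, the other nuclear receptors in 2 and 5 of 5, the coregulators in 4 and 5 of 6, and genes known to respond to retinoic acid in 5 and 6 of 7. Of the genes known to respond, 2 were higher and 3 lower in +Fgf than in +Wnt at Day 12, and 3 and 3 at Day 15. Against Day 10, 1 was higher and 6 lower in +Fgf at both ages (27.8% and 36.4% of all genes were lower). In +Wnt, 1 was higher and 3 were lower than Day 10 at both ages (29.6% and 40.2% lower). The carrier Fabp5 passed between the tissues at Day 15 only, lower in +Fgf by 0.66 on the log2 scale.

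Rxrg, Aldh1a7 and Nr2f2 differed most at Day 12 among the genes of this list. Rxrg, a partner receptor, stood at 4.06, 4.59 and 2.87 CPM in Day 12 +Fgf and at 48.7, 61.0 and 46.2 CPM in Day 12 +Wnt (log2 difference -3.67, limma adjusted p = 2.21e-11). At Day 10 it had stood at 28.5 to 35.7 CPM, so it fell by 2.97 under +Fgf by Day 12 (limma adjusted p = 6.38e-10), whereas at Day 15 it was at 5.30 to 6.86 CPM in +Fgf and at 2.91 to 3.97 CPM in +Wnt, so that +Fgf was then higher by 0.83 (limma adjusted p = 0.000284). Nr2f2, a nuclear receptor gene known to respond to retinoic acid, was lower in +Fgf by 1.24 on the log2 scale at Day 12 (limma adjusted p = 7.41e-06). Aldh1a7 was higher in +Fgf by 2.45 at Day 12 and by 2.85 at Day 15 (limma adjusted p = 6.64e-06 and 5.71e-07).

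Transcripts of Stra6 and Dhrs3 also differed between the tissues at Day 15. Stra6, the receptor that takes up retinol, was at 18.8 to 23.2 CPM in +Fgf and at 116 to 133 CPM in +Wnt (log2 difference -2.61, limma adjusted p = 4.00e-13), after -0.64 at Day 12 (limma adjusted p = 1.75e-05). Aldh8a1, a dehydrogenase known to act on 9-cis retinal, was at 0.137 to 0.295 CPM in +Fgf and at 1.94 to 3.30 CPM in +Wnt (log2 difference -2.55), and it passed the filter only through Day 15 +Wnt, which favoured this call. Dhrs3, which reduces retinaldehyde back to retinol, was higher in +Fgf by 0.89 at Day 15 (limma adjusted p = 0.0146) and differed by 0.66 at Day 12 (adjusted p = 0.0751, limma).

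Genes of eye patterning, which the Aldh1a genes are known to follow in the embryo, were listed beside them. Of 5 dorsal factors, all passed between the tissues at both ages (51.5% of all genes did at Day 12 and 68.7% at Day 15), with 4 higher in +Fgf (26.3% and 38%) and 1 lower, which was Bmp4, named after its values were seen. Tbx3 differed most, by 3.44 at Day 12 and 5.23 at Day 15 (limma adjusted p = 7.78e-09 and 1.63e-11), and Tbx2 differed by 2.11 at Day 12 (limma adjusted p = 2.22e-08). Of 3 tested ventral factors, 2 passed at Day 12 and 3 at Day 15, and those were higher in +Fgf. Among them Pax2 differed by 2.26 and 5.21 (limma adjusted p = 9.79e-06 and 1.87e-10) and Vax2 by 3.32 at Day 15 (limma adjusted p = 1.95e-09).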

How the data were processed

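RNA-Seq libraries of 15 SFEBq samples were used, 3 biological replicates in each of 5 groups, grouped by their titles. Alignment by the authors was to mm10 with TopHat2 (v2.0.8b), estimated fragments per gene with Cuffdiff (Cufflinks v2.1.1) and normalized them with edgeR (v3.2.4). The deposited values are called CPM by the authors but are treated as a normalized signal, because they sum to 936418 to 1075448 per library, as TMM scaled values do. Whole reads were recovered from 100% of non-zero values (within 0.01 read).

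Log2(value + 0.3) was fitted with limma (v3.58.1, R v4.3.3), as 5 group means over all 15 libraries with a trend in the prior spread, for genes that reached 1 CPM, taken of each column's sum, in 3 or more libraries. P-values are two-sided and adjusted by Benjamini-Hochberg over the 13845 genes of a comparison, with a threshold of 0.05. Since the deposited values are not counts, edgeR (v4.0.16, quasi-likelihood) and DESeq2 (v1.42.0) on recovered reads were alternatives. The others were the pseudocount (0.05, 1), the filter (none, 10 CPM), quantile and median-of-ratios scaling, no trend, the RNA integrity number given by the study as a covariate, a block for replicate numbers, a fit restricted to the samples compared, and leaving out each library. Likeness in pattern is the mean absolute difference between centred group means of log2 values, among genes with at least 10 CPM in a group.

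Intervals and ratios of reads are exact, at 95%, and cover counting error only. Precision was set by 3 replicates and by depth (12556998 to 16175450 reads). Exon lengths and overlaps came from GENCODE vM21 (GRCm38, also called mm10), and shares use the union of exons. The 9 members and all lists were chosen with earlier results of these data known. The other genes named are the 3 of the pathway lists and the 3 of the patterning lists with the greatest difference between the tissues at each age among those past the threshold, Aldh1a7, Dhrs3, Stra6, and the 2 most like each member in pattern. Some genes of the lists are not reported here, and the list counts leave them out.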

Additional observations from a re-analysis of the deposited data

Results flagged for a closer look

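The change from Day 12 to Day 15 differed between +Fgf and +Wnt for 4 of the 9 genes by the interaction in limma, and for 47.9% of all genes tested. The log2 change in +Fgf minus that in +Wnt was -2.46 for Aldh1a2 (adjusted p = 0.00349, or 0.00434 with no filter), 1.32 for Aldh1a3 (adjusted p = 0.00156), 1.25 for Crabp2 (adjusted p = 2.22e-07) and 0.82 for Rarb (adjusted p = 0.0483). Aldh1a3 and Crabp2 fell in both tissues and further in +Wnt, Aldh1a2, which passed the filter only through Day 15 +Wnt, was higher there than in Day 12 +Wnt, and Rarb rose in +Fgf. The call of Rarb was lost in 16 of 24 alternatives. That of Aldh1a2 was lost with the RNA integrity number as a covariate (-1.39).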

How the results depend on the processing

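Of the log2 differences of the 9 genes under the alternatives, 1386 kept their direction and their side of the threshold, 47 lost the call, 30 gained one and 31 changed sign, and none of those that changed sign was past the threshold as reported. Among the 31, Crabp1 from Day 12 to Day 15 +Wnt passed with its new sign (0.23 without Day 12 +Wnt replicate 3). With the RNA integrity number as a covariate, 2 of the 9 genes and 3591 of all genes passed from Day 12 to Day 15 in +Fgf, and 2 and 3842 for the interaction. The paper's integrity numbers were lower in every Day 10 and Day 15 +Fgf library than in any library of the other groups. RNA integrity and group thus cannot be told apart where these groups are compared with the others. With the filter at 10 CPM, which left 7 of the 9 genes, 2 of those 7 passed for the interaction. With that covariate the sign changed from Day 10 to Day 12 +Fgf for Rarb (-0.12), Cyp26b1 (-0.66) and Aldh1a3 (-0.32), from Day 10 to Day 12 +Wnt for Cyp26c1 (0.024), from Day 12 to Day 15 for Aldh1a2 in +Fgf (0.73) and Cyp26a1 in +Wnt (-0.016), between the tissues at Day 15 for Cyp26b1 (1.14), from Day 10 to Day 15 for Aldh1a2 in +Fgf (0.057) and Cyp26c1 in +Wnt (0.12), and in the interaction for Aldh1a1 (-0.51) and Cyp26b1 (0.33). From Day 10 to Day 12 +Fgf, Aldh1a2 was at 0.044 with a pseudocount of 1, 0.29 with edgeR and 0.28 with DESeq2. From Day 12 to Day 15 +Wnt, Cyp26a1 was at -0.12 with a pseudocount of 0.05 and -0.53 with quantile normalization, which also gave -0.44 for Rarb and -0.028 for Cyp26c1, and Crabp1 was at 0.024 with median-of-ratios scaling. Quantile normalization moved the median of all genes to -0.11 for Day 15 +Wnt against Day 10. The cause was not tested.

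Leaving out 1 library changed the sign of 9 log2 differences, given here by the range over the libraries left out. In Day 12 +Fgf against Day 10 the range was -0.55 (without Day 12 +Fgf replicate 2) to 0.62 (without replicate 3) for Aldh1a2, which was also positive without Day 10 replicate 3 (0.24), and -0.040 (without Day 12 +Fgf replicate 1) to 0.29 for Aldh1a3. For Day 15 against Day 12 in +Fgf it was -1.16 (without Day 12 +Fgf replicate 1) to 0.32 (without replicate 2) for Aldh1a1 and -0.98 (without replicate 3) to 0.19 (without replicate 2) for Aldh1a2. In +Wnt it was -0.53 (without Day 15 +Wnt replicate 3) to 0.49 (without Day 15 +Wnt replicate 1) for Cyp26a1, which was at -0.35 and -0.086 without Day 12 +Wnt replicate 2 and 3, and -0.18 (without Day 12 +Wnt replicate 1) to 0.23 (without replicate 3) for Crabp1, whose interaction ranged from -0.14 to 0.26 with the same libraries. Between the tissues at Day 15 it was -1.55 (without Day 15 +Fgf replicate 3) to 0.37 (without replicate 1) for Cyp26b1, and in Day 15 +Wnt against Day 10 it was -0.25 (without Day 10 replicate 2) to 0.044 (without replicate 3) for Cyp26c1.

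Calls were gained without Day 10 replicate 1 for Aldh1a3 in Day 12 +Wnt (-0.59) and Crabp1 in Day 15 +Fgf (-0.43) against Day 10, without Day 12 +Fgf replicate 3 for Aldh1a2 between the tissues at Day 12 (1.61) and from Day 12 to Day 15 in +Fgf (-0.98), and without Day 15 +Fgf replicate 1 for Cyp26c1 from Day 12 to Day 15 in +Fgf (-0.97). The interaction passed for Aldh1a1 without Day 12 +Fgf replicate 2 (1.85), for Cyp26a1 without replicate 1 of Day 12 or Day 15 +Wnt (-1.56 and -1.61), for Cyp26c1 without Day 15 +Fgf replicate 1 (-1.06) and for Cyp26b1 without Day 15 +Fgf replicate 3 (-2.63). With 1 library left out, 6 to 8 of the 9 genes passed between the tissues at Day 12 and 8 to 9 at Day 15. Of all 13845 genes tested, 6200 to 6684 and 8916 to 9067 passed in the same fits.

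Replicate numbers did not pair the samples. The correlation of same-numbered libraries' deviations was -0.25 to 0.24 over 30 pairs, over 0.1 in 7, and 6 of 15 libraries were closest to their own number. With the replicate number as a block, the interaction of Rarb (0.82) had a limma adjusted p = 0.0541, and no other call of the 9 genes changed. Of the shares per kilobase, 31 of 90 values moved by more than 1 SD with the length used. Depth limits Aldh1a2, Cyp26c1 and, in +Wnt, Cyp26a1, which were read at most 30 times per library there.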
